A study of Mus musculus with 6 samples.

Results

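De novo lipogenesis, the pathway that builds fatty acids from sugar carbon, was followed through 10 of its genes in liver RNA of mice with sickle cell disease. The 10 genes are Srebf1, Mlxipl, Acly, Me1, Acaca, Acacb, Fasn, Elovl6, Scd1 and Thrsp. They were chosen by name, all 10 were found among the 24421 gene symbols of the count tables, and all 10 were among the 12622 genes with enough counts to test. The mice belonged to the Townes line, whose adult globin genes were replaced by human ones. All carried the humanised alpha-globin allele Hbatm1(HBA)Tow. SS mice carried the sickle allele Hbbtm2(HBG1,HBB*)Tow at the beta-globin locus, and AS mice carried that allele with the normal one, Hbbtm3(HBG1,HBB)Tow. AS mice, the controls, are therefore carriers of the sickle allele and not mice with mouse globin. Livers were taken at 7 months, and total RNA gave 3 libraries per genotype. Sex, diet, feeding state and hour of collection are not in the labels, nor whether each replicate is its own animal. The p-values therefore cover the spread between these libraries, which may be technical.

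In the liver, citrate leaves the mitochondrion and is cleaved to acetyl-CoA, which is carboxylated and then joined into palmitate with reducing power from NADPH. Palmitate is elongated and desaturated before it enters triglyceride. Insulin acts on the pathway mainly through the transcription factor SREBP-1c, and sugar through ChREBP, so that hepatic lipogenesis is known to rise after feeding and to fall with fasting.

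Library depth ran from 6670011 to 13700194 gene reads. In a whole-liver sample, fewer cells of a type and less RNA per cell cannot be told apart. AS replicate 1 and SS replicate 3 lay at opposite ends of the first principal component, and AS replicates 2 and 3 were closer to each other (chi-square per gene 4.05) than any other pair (29.2 to 170). Results are therefore given with and without AS replicate 1 where it matters. The libraries were liver by the 10 hepatocyte markers, whose summed level was 97497 to 138920 CPM (a gene's counts scaled to a fixed total of gene reads with TMM factors) in AS and 79701 to 106734 CPM in SS. AS replicate 1 had the highest of these sums. Fat tissue also makes these enzymes: of 10 adipocyte markers, 7 had too few reads to test, with at most 9 in a library and 0 in all 6 libraries for Plin1 and Lep. The 3 tested (Lipe, Fabp4 and Pparg) had a median log2 difference of 0.50, with Fabp4 higher at an unadjusted p under 0.05 and without overlap. All 10 summed to 49.1 to 54.4 CPM in AS and 49.2 to 83.1 CPM in SS. Markers of red cell precursors were called higher in SS for 4 of 8 tested, with summed levels of 46.2 to 63.0 CPM in AS and 248 to 497 CPM in SS. Markers of monocytes and macrophages were called higher for 4 of 10 (310 to 378 against 478 to 808 CPM) and those of stellate cells and fibroblasts for 3 of 10 (330 to 403 against 471 to 680 CPM). These calls are edgeR's, which called 0.911% of all genes higher in SS. Of the red cell, macrophage and stellate cell markers, DESeq2 called 5, 4 and 4, and limma-voom called 2, 0 and 2. Without AS replicate 1, edgeR called 2, 1 and 0 of them. Of 8 endothelial markers edgeR called 0, DESeq2 1 and limma-voom 0 (281 to 369 against 250 to 444 CPM), with 1 higher at an unadjusted p under 0.05. The part of these cells in the lipogenesis values was not tested.

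Per kilobase of exon, Scd1 was the most abundant of the 10 transcripts and Acaca the least. Scd1, the stearoyl-CoA desaturase that makes oleate, had a mean level of 692 CPM per kilobase over the 6 libraries (range 213 to 1074). Thrsp followed at 232 (range 35.2 to 476), and was below Scd1 in all 6 libraries. Mlxipl (50.9), Me1 (42.8), Acly (37.5), Fasn (28.6) and Srebf1 (26.5 CPM per kilobase) formed a middle group in which neighbours were close: Mlxipl exceeded Me1 in 4 of 6 libraries and Fasn exceeded Srebf1 in 3 of 6. Elovl6 (12.1), Acacb (6.42) and Acaca (3.18 CPM per kilobase) came last, in this order in all 6 libraries. Lengths were the union of annotated exons, which for Acaca comes to 17074 bases, which no single transcript need hold, so that its level per kilobase may be too low.

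**Figure D1:**
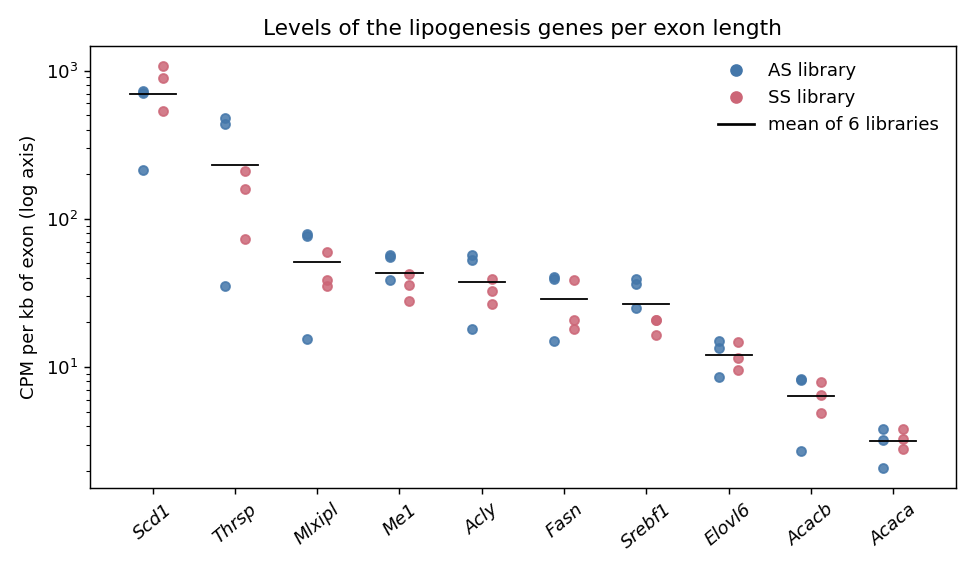
Level of each lipogenesis gene as CPM per kilobase of exon on a log axis, 1 point per library (AS and SS side by side), with the mean of the 6 libraries as a black line. Scd1 and Thrsp stand above the other genes, from Mlxipl at a mean of 50.9 down to Acaca at 3.18, and Thrsp spans the widest range.

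None of the 10 genes was called between genotypes with all 6 libraries. Differences were tested by the quasi-likelihood method of edgeR, and p was adjusted by Benjamini-Hochberg over the 12622 genes, with a threshold of 0.05. Over all genes it called 0.967% (0.911% higher and 0.0555% lower in SS). Neither DESeq2 nor limma-voom called any of the 10, while they called 3.59% and 0.246% of all genes. At an unadjusted p under 0.05, 1 of the 10 was lower in SS, Srebf1, and 0 were higher, against 3.58% and 9.12% of all genes. Fitted values were lower in SS for 7 of the 10, with a median log2 difference of -0.33, while the median over all genes was 0.08 and 43.7% of them had lower fitted values. The hepatocyte markers had a like median of -0.35, with 9 of 10 lower in fitted value, 2 whose groups did not overlap and 0 called by edgeR (1 at an unadjusted p under 0.05). DESeq2 called 1 of these markers and limma-voom 0. Without AS replicate 1 and SS replicate 3, edgeR called 5 of them, beside 5.21% of all genes in either direction. In that fit 8 of the 10 markers had lower fitted values and 2 higher. Scaling by library totals alone moved that overall median to 0.36 and the median of the 10 genes to -0.11.

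Srebf1, a transcription factor gene, had the lowest p of the 10. It encodes SREBP-1, which is freed from the endoplasmic reticulum by proteolysis and turns on the genes of fatty acid synthesis (chromosome 11, 60199089 to 60222581, mm10). It was at 140.5, 206 and 222 CPM in AS replicates 1, 2 and 3, and at 117, 117 and 93.1 CPM in SS replicates 1, 2 and 3. Every SS library was below every AS library, AS replicate 1 included, which held for 1 of the 10 genes and for 9.04% of all genes. The means were 190 ± 43.3 and 109 ± 14.0 CPM (SD, n = 3), which is a log2 difference, SS minus AS, of -0.79 (SE 0.264, 95% interval -1.38 to -0.21) with an unadjusted p of 0.0125. Adjusted over all genes it missed the threshold, at adjusted p = 0.250 by edgeR and 0.0766 by DESeq2. Without AS replicate 1 the log2 difference was -0.98 (adjusted p = 0.205 by edgeR).

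Mlxipl encodes ChREBP, the glucose-responsive factor that pairs with Mlx (chromosome 5, 135089890 to 135138382). It was at 86.1, 426 and 439.9 CPM in AS and at 333, 194 and 214 CPM in SS. AS replicate 1 was the lowest of the 6 libraries and the other AS libraries were the highest, so the groups overlapped because of 1 library. The log2 difference was -0.36 (SE 0.507, interval -1.48 to 0.76), and -0.82 (SE 0.309, adjusted p = 0.373 by edgeR) without AS replicate 1.

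The counts pool all transcripts of a gene, so the SREBP-1a and SREBP-1c forms, which start from separate promoters of Srebf1, cannot be told apart. In the promoter table used, from RefSeq (GRCm38.p6, the mm10 assembly), 9 of the 10 genes, all but Scd1, were matched to 13 promoters, among them 3 for Srebf1 and 2 for Mlxipl. The 200 bases before the start are shown for Fasn, for the innermost Srebf1 start and the next one out, and for the Mlxipl start that the annotated gene begins with. They are shown for the boxes to which the partner factors of SREBP and ChREBP target genes are known to bind. Capitals mark CCAAT boxes, Sp1 boxes (GGGCGG) and E-boxes (CACGTG) found on either strand. The CCAAT box of 1 strand reads ATTGG on the other.
Fasn, minus strand, chr11:120824548-120824747: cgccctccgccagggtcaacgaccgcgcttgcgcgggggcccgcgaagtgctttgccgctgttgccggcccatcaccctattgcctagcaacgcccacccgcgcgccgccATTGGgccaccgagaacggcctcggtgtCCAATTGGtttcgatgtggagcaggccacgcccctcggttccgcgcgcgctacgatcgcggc
Srebf1 next start, minus strand, chr11:60220628-60220827: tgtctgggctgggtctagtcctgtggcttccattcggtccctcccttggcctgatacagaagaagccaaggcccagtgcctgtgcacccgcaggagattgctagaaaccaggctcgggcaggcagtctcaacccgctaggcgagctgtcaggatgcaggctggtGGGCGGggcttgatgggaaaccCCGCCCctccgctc
Srebf1 inner start, minus strand, chr11:60210472-60210671: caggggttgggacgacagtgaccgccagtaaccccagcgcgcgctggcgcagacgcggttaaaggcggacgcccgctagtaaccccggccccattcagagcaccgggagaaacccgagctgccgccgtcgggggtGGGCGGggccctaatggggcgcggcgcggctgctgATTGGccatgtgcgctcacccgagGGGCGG
Mlxipl, plus strand, chr5:135089690-135089889: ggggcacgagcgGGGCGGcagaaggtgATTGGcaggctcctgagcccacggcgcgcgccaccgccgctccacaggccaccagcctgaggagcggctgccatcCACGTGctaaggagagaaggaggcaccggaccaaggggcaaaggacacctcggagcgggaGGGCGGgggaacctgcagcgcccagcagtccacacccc

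The Fasn promoter holds 3 CCAAT boxes, which begin 90, 62 and 59 bases before the start, and the last 2 share bases. The inner Srebf1 promoter has a CCAAT box 30 bases before the start between Sp1 boxes at 65 and 6 bases, and lies inside the gene, in an intron of the longer transcripts. The next start has Sp1 boxes at 36 and 14 bases and no CCAAT box. The Mlxipl promoter shown is the only one of the 13 with an E-box, 98 bases before the start. The 200 bases before the other Mlxipl start, at 135106891 and not shown, held none of these boxes. Over the table's full windows of 300 bases, a CCAAT box was found in 8 of the 13 promoters and in 37.4% of all 32851 promoters. An Sp1 box was found in 5 of 13 and in 35.7% of all. An E-box was found in 1 of 13 and in 7.15% of all. The sterol regulatory element in its classical form, an E-box pair with 5 bases between and an AGGTCA repeat with 4 bases between had no exact match in the 13 promoters. They were found in 0.0913%, 0% and 0.0152% of all promoters, which shows only that these exact letters are rare in such windows.

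The enzymes that supply carbon and reducing power had lower fitted values in SS without passing the test. Acly, the ATP citrate lyase that releases cytosolic acetyl-CoA (chromosome 11, 100476353 to 100528000), was at 94.7, 299 and 277 CPM in AS and at 141, 206 and 171 CPM in SS. All SS libraries lay between AS replicate 1 and the other AS libraries. Its log2 difference was -0.37 (SE 0.393, interval -1.24 to 0.50), and -0.75 (SE 0.276, adjusted p = 0.364 by edgeR) without AS replicate 1. Me1, the cytosolic malic enzyme that makes NADPH (chromosome 9, 86581371 to 86695953), was at 149, 220 and 212 CPM in AS and at 137, 163 and 107 CPM in SS. Only SS replicate 2 reached into the AS range, and the log2 difference was -0.51 (SE 0.271, interval -1.11 to 0.09, adjusted p = 0.459 by edgeR).

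The acetyl-CoA carboxylase genes had overlapping levels. Acaca, whose product makes the malonyl-CoA used for synthesis in the cytosol (chromosome 11, 84129672 to 84401651), was at 35.8, 55.1 and 65.7 CPM in AS and at 47.8, 56.0 and 64.9 CPM in SS. These are nearly the same ranges, with a log2 difference of 0.11 (SE 0.275, interval -0.50 to 0.72). Acacb, whose product at the mitochondrial surface restrains fatty acid entry (chromosome 5, 114146535 to 114250761), was at 26.1, 80.2 and 78.6 CPM in AS and at 46.8, 62.6 and 76.5 CPM in SS. Its log2 difference was 0.01 (SE 0.390, interval -0.85 to 0.87), and it took the opposite sign in 7 of 17 alternatives. Acaca had 1.37, 0.687 and 0.836 reads per Acacb read in AS and 1.02, 0.895 and 0.848 in SS, which overlap.

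Fasn, the fatty acid synthase that assembles palmitate (chromosome 11, 120805846 to 120824547), was at 164, 445 and 428 CPM in AS and at 226, 421 and 198 CPM in SS. SS replicate 2 was near the higher AS libraries and the other SS libraries were nearer AS replicate 1. The log2 difference was -0.30 (SE 0.416, interval -1.22 to 0.63, adjusted p = 0.787 by edgeR). It was -0.64 without AS replicate 1, -0.72 without SS replicate 2 and -0.09 without AS replicate 2, so its size depended on which library was left out. Fasn had 1.73, 1.49 and 1.55 reads per Acly read in AS and 1.61, 2.04 and 1.15 in SS, a narrow range in AS even though both genes were low in AS replicate 1. Elovl6, which extends palmitate to stearate (chromosome 3, 129532355 to 129638495), was at 54.7, 85.9 and 96.5 CPM in AS and at 73.5, 94.3 and 61.0 CPM in SS, with full overlap and a log2 difference of -0.05 (SE 0.283, interval -0.68 to 0.58).

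Scd1 had the highest fitted value among the 10 genes. Scd1 (chromosome 19, 44394455 to 44407879) was at 1043, 3571 and 3451 CPM in AS and at 2611, 4395 and 5254 CPM in SS. SS replicates 2 and 3 were above all AS libraries, while SS replicate 1 lay inside the AS range. The log2 difference was 0.60 (SE 0.451, interval -0.39 to 1.60, adjusted p = 0.593 by edgeR). It was 0.21 without AS replicate 1 and -0.0053 without AS replicate 1 and SS replicate 3, so its level was not shown to differ between genotypes. Scd1 has the close relative Scd2 beside it, and reads that match both could have been dropped in counting.

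Thrsp had the widest spread. It encodes Spot 14, a small protein that binds its relative Mid1ip1 and acts on acetyl-CoA carboxylase. Thrsp (chromosome 7, 97412938 to 97417730) was at 77.2, 1042 and 955 CPM in AS and at 349, 159 and 464 CPM in SS. Within AS the higher libraries averaged 12.9 times AS replicate 1, the largest such ratio of the 10 genes, and all SS libraries lay between. The log2 difference was -1.09 (SE 0.777, interval -2.85 to 0.67, adjusted p = 0.581 by edgeR), and -1.63 (SE 0.418, adjusted p = 0.200 by edgeR) without AS replicate 1.

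**Figure D2:**
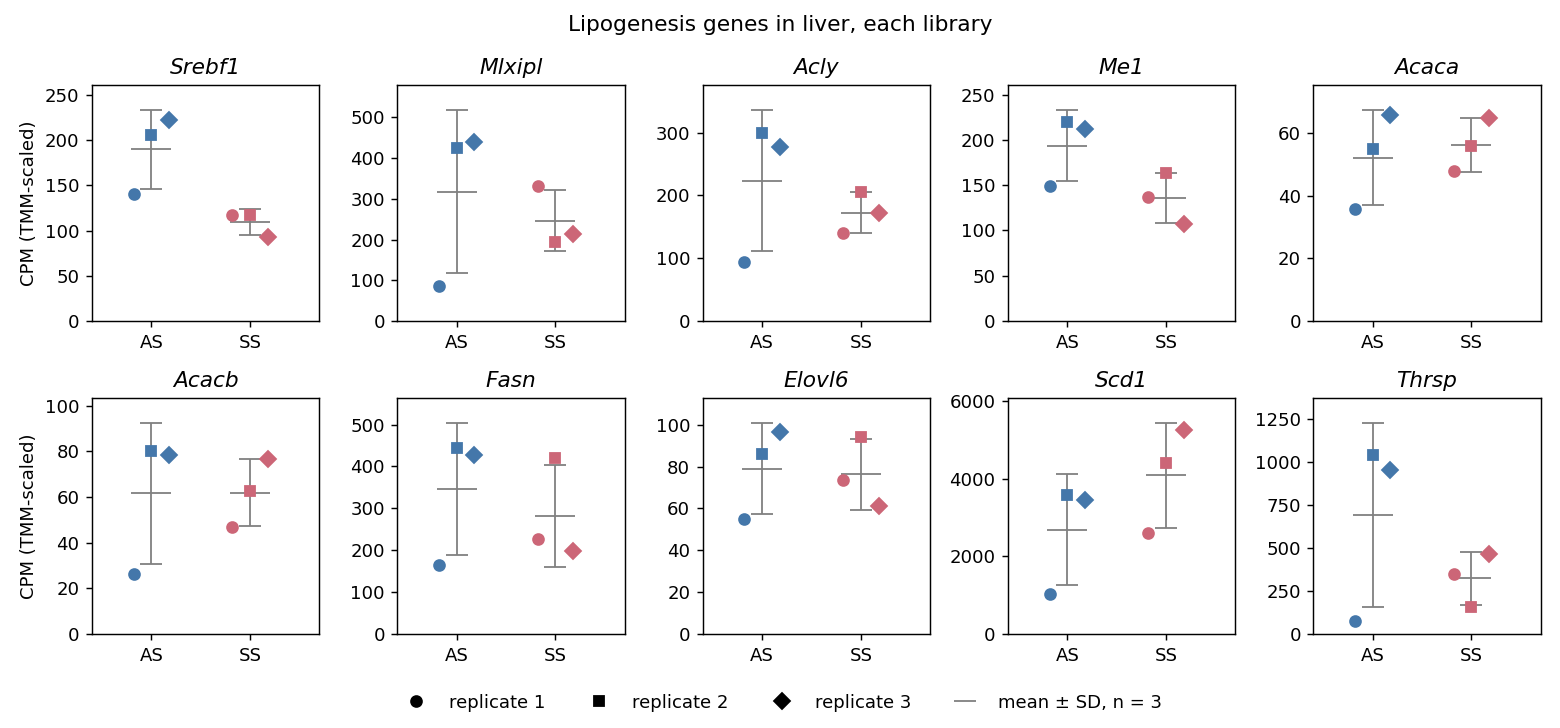
CPM of each lipogenesis gene in the 6 libraries, with symbols for replicate number and grey bars for mean ± SD of 3 libraries; each axis starts at 0. AS replicate 1 (blue circle) is the lowest AS library in all 10 panels, and Srebf1 is the gene whose groups do not overlap.

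AS replicate 1 held low levels of most of the pathway. It was the lowest of the 6 libraries for 8 of the 10 genes, all but Srebf1 and Me1, where SS replicate 3 was lowest. Over all genes tested, AS replicate 1 was the lowest library for 23.6%. The 10 genes together took 0.156% of its gene reads (exact 95% interval 0.153% to 0.158%), against 0.598% and 0.601% in AS replicates 2 and 3. In SS replicates 1, 2 and 3 they took 0.444%, 0.591% and 0.809%. Summed CPM was 3.38 times lower in AS replicate 1 than in the mean of the other AS libraries. The intervals cover counting error only, and the widest spanned 0.0117 percentage points, far less than the spread between libraries.

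AS replicate 1 was the lowest AS library for all 10 genes, so the choice to leave it out itself moved their values toward lower in SS. The counts without it are a description and no support for a difference. The labels do not say whether AS replicates 2 and 3, the closest pair, are separate animals. Without AS replicate 1, fitted values were lower in SS for 9 of the 10 genes, with a median log2 difference of -0.66 against 0.09 over all genes. In 7 genes every SS library was then below both AS libraries, namely Srebf1, Mlxipl, Acly, Me1, Acacb, Fasn and Thrsp; the same held for 14.7% of all genes. At an unadjusted p under 0.05, 5 were lower (Srebf1, Mlxipl, Acly, Me1 and Thrsp) and 0 higher, against 3.17% of all genes lower. None was called by edgeR, which called 0.167% of all genes in that fit. With SS replicate 3 also left out, Srebf1 (log2 difference -0.87, adjusted p = 0.0157 by edgeR) and Thrsp (-1.98, adjusted p = 0.0102 by edgeR) were called lower, beside 2.49% of all genes. In that fit, of 2 libraries a group, 6 of the 10 were lower at an unadjusted p under 0.05, against 9.94% of all genes. This was the single setting of 17 in which any of the 10 was called.

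**Figure D3:**
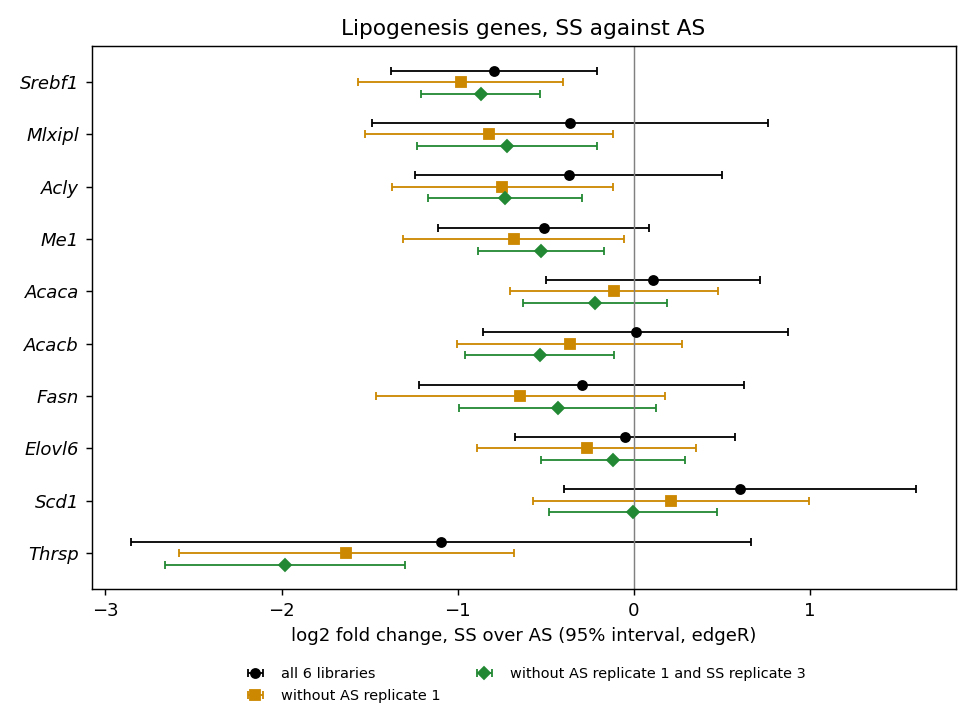
Log2 fold change of each lipogenesis gene, SS over AS, with 95% intervals from edgeR, for all 6 libraries (black), without AS replicate 1 (orange) and without AS replicate 1 and SS replicate 3 (green). With all libraries only the interval of Srebf1, from -1.38 to -0.21, leaves out 0, and that of Thrsp is the widest.

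The share of Scd1 in the summed reads of the 10 genes separated the genotypes, whichever AS library was considered. Scd1 made up 55.7%, 55.5% and 55.4% of the reads of the 10 genes in AS replicates 1, 2 and 3, and 64.0%, 74.9% and 78.4% in SS replicates 1, 2 and 3. The share was thus near constant in AS, although the summed level in AS replicate 1 was 3.38 times below the mean of the other AS libraries, and all SS libraries were above it. Single genes were not in constant balance with Scd1 in AS. Scd1 per Me1 was 7.00, 16.2 and 16.3 there and Scd1 per Srebf1 7.42, 17.3 and 15.5, while Scd1 per Acly ran from 11.0 to 12.5. Thrsp went the other way, since the other AS libraries averaged 12.9 times AS replicate 1. The means were 55.6% ± 0.162 and 72.4% ± 7.52 (SD, n = 3), a difference of 16.8 percentage points, which ran from 13.9 to 21.1 when each library was left out in turn. A ratio within a library does not depend on scaling between libraries. This comparison and the libraries left out of it were picked after the values were seen, and it is given as a description with no test.

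The same held for Acly, Fasn, Srebf1, Me1 and Acacb taken singly, but not for every gene. Reads of Scd1 per read of Acly were 11.0, 11.95 and 12.5 in AS and 18.5, 21.3 and 30.7 in SS. Reads of Scd1 per read of Fasn were 6.37, 8.02 and 8.06 in AS and 11.5, 10.4 and 26.6 in SS. Reads of Scd1 per read of Srebf1 were 7.42, 17.3 and 15.5 in AS and 22.2, 37.4 and 56.4 in SS. For Me1 they were 7.00, 16.2 and 16.3 in AS and 19.0, 26.9 and 49.0 in SS. In each pair every SS library was above every AS library. Acacb was alike: AS replicate 2, the highest in AS, had 22171 reads of Scd1 and 498 of Acacb. SS replicate 1, the lowest in SS, had 19784 and 355. The share of all genes that separate in this way against Scd1 was not counted. Scd1 per Elovl6 overlapped, at 19.1, 41.6 and 35.8 in AS and 35.5, 46.6 and 86.1 in SS. Scd1 per Thrsp, per Mlxipl and per Acaca overlapped too. AS replicate 1 had 9056 reads of Scd1, 670 of Thrsp and 748 of Mlxipl, and SS replicate 1 had 19784, 2645 and 2520. AS replicate 2 had 22171 reads of Scd1 and 342 of Acaca, and SS replicate 1 had 19784 and 362. The other 9 genes summed to 828, 2859 and 2775 CPM in AS and to 1471, 1474 and 1449 CPM in SS, so the SS libraries were alike in that sum. Single members of it were not alike there: between SS libraries Thrsp varied 2.92-fold and Fasn 2.13-fold, and Scd1 2.01-fold. Such ratios describe these 6 libraries, were not tested, and do not show which of the genes changed.

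**Figure D4:**
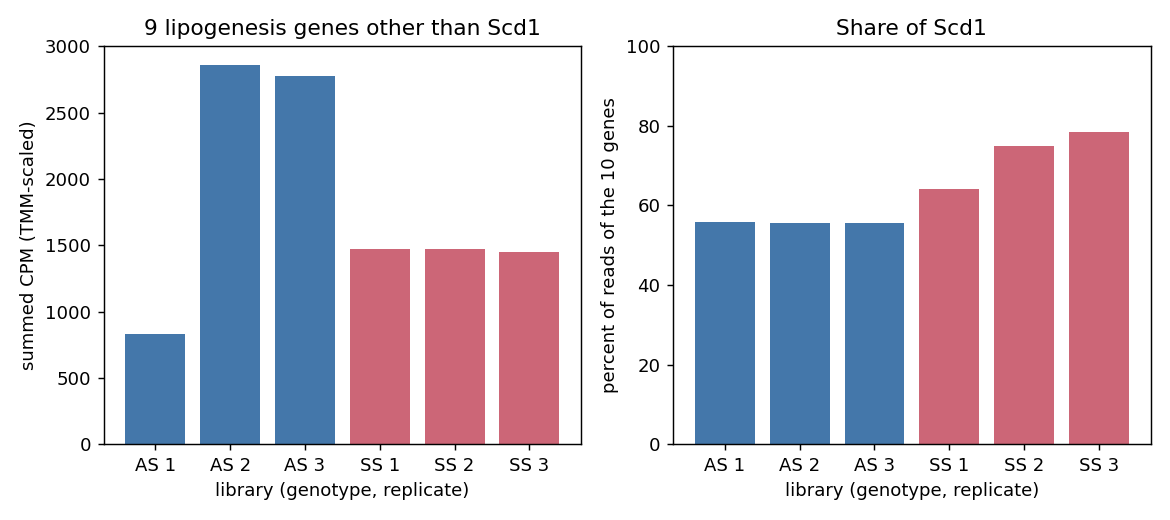
Left, summed CPM of the 9 lipogenesis genes other than Scd1 in each library; right, Scd1 as a percent of the reads of all 10 genes. AS replicate 1 has the lowest sum, 828 CPM, yet the share of Scd1 is 55.7% there, as in the other AS libraries, and 64.0% to 78.4% in SS.

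Genes around the pathway were read in 6 lists with 69 tested members. None was called by edgeR, DESeq2 or limma-voom. At an unadjusted p under 0.05, 6 were lower in SS and 3 higher, against 3.58% and 9.12% of all genes. Groups did not overlap in 9 that were lower and 2 that were higher, against 9.04% and 12.1% of all genes. The median log2 difference of the 69 was -0.10, against 0.08 over all genes. Scaling by library totals alone raised every list's median, as it did that of all genes (0.36), and those values are given beside each. Lower fitted values were found in 46 of the 69 (66.7%), against 43.7% of all genes.

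Among genes that supply NADPH, citrate and acetyl-CoA, 9 of 11 had lower fitted values (median -0.25), or 5 of 11 with library totals alone (median 0.06). The lowest p was that of G6pdx, the entry enzyme of the pentose phosphate pathway, which was the reverse: 6.10, 4.83 and 5.07 CPM in AS and 8.31, 13.6 and 13.2 CPM in SS (log2 difference 1.13, SE 0.345, adjusted p = 0.195 by edgeR). Among genes of glucose and fructose entry, 6 of 7 had lower fitted values (median -0.23), or 3 of 7 with library totals (median 0.06). Pklr, the liver pyruvate kinase and a textbook ChREBP target, was at 76.7, 111 and 106 CPM in AS and at 47.6, 57.9 and 66.9 CPM in SS, with no overlap (log2 difference -0.77, SE 0.252, adjusted p = 0.241 by edgeR).

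Of 16 regulators of SREBP-1c and ChREBP, 11 had lower fitted values (median -0.13), or 3 with library totals (median 0.15). Mid1ip1, the relative of Thrsp, was at 37.1, 61.4 and 71.2 CPM in AS and at 26.1, 28.2 and 33.5 CPM in SS. Its groups did not overlap, with a log2 difference of -0.95 (SE 0.287, adjusted p = 0.193 by edgeR). Insig1, which holds the SREBP precursor in the endoplasmic reticulum, is itself a target of SREBP and was chosen after its values were seen. It was at 270, 638 and 639 CPM in AS and at 280, 354 and 202 CPM in SS (log2 difference -0.89, SE 0.367, adjusted p = 0.358 by edgeR), and AS replicate 1 lay among the SS libraries.

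Insulin and AMPK signalling genes had lower fitted values in 6 of 14 (median 0.10), or 2 with library totals (median 0.38). Mtor, the growth kinase, had the lowest p, with 62.5 CPM in SS replicate 3 against 25.5 to 33.5 CPM in the other 5 libraries (adjusted p = 0.484 by edgeR). Other elongases and desaturases had lower fitted values in 9 of 11 (median -0.06), or 3 with library totals (median 0.23). Scd2, the second desaturase gene, was at 10.2, 12.1 and 11.4 CPM in AS and at 10.7, 31.2 and 26.2 CPM in SS (log2 difference 1.02, SE 0.381, adjusted p = 0.307 by edgeR). As with Scd1, SS replicates 2 and 3 were above all AS libraries and SS replicate 1 was not. In glycerolipid assembly, 5 of 10 had lower fitted values (median -0.0020), or 2 with library totals (median 0.28). Dgat2, which adds the last acyl chain of triglyceride, was at 518, 543 and 560 CPM in AS and at 331, 302 and 454 CPM in SS, with no overlap (log2 difference -0.58, SE 0.261, adjusted p = 0.396 by edgeR).

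**Figure D5:**
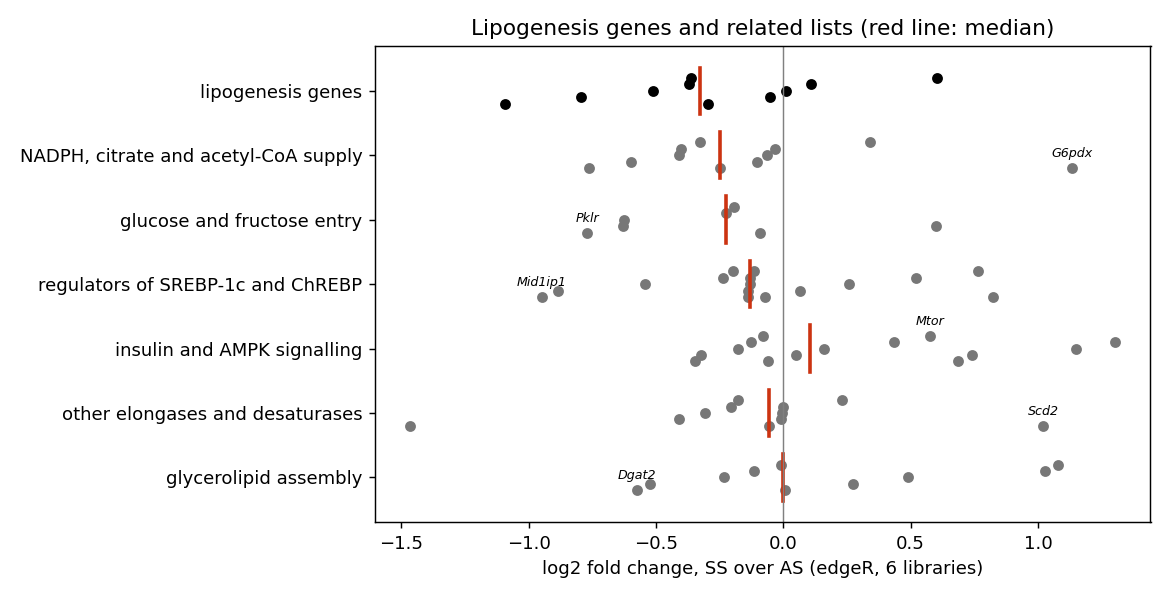
Log2 fold change, SS over AS, of the 10 lipogenesis genes (black) and of the tested members of 6 related lists (grey), with a red line at each median and the member of lowest p named in each list. The median of the lipogenesis genes is -0.33, and those of the lists lie between -0.25 and 0.10.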

How the data were processed

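For 3 AS and 3 SS liver libraries, the deposited values were unnormalised read counts per gene, 1 file each. HISAT2, HTSeq and the mm10 build are named per the submitters' processing notes; versions, annotation and strand setting are not given in the sources used here. Lines for records outside genes (40.7% to 53.9% with no feature and 14.7% to 22.8% aligned more than once) entered neither library sizes nor tests. Where strand was not used, reads of overlapping genes cannot be told apart: by GENCODE M21, exons of Srebf1 share 109 bases with Rai1, those of Mlxipl 235 with Gm43500, those of Elovl6 34 with Gm35986 and those of Me1 30 with A330041J22Rik, on the opposite strand.

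Genes were filtered with filterByExpr (minimum count 10, minimum total 15), scaled by trimmed-mean (TMM) factors and tested in edgeR 4.0.16 (R 4.3.3) with a robust quasi-likelihood fit, two-sided, adjusted by Benjamini-Hochberg over all 12622 genes tested. CPM used the same factors. The standard error of a log2 difference was derived from its F statistic. The scripts were tested on simulated data. Replicate numbers were not used as a block. DESeq2 1.42.0 and limma-voom (limma 3.58.1) were among 17 alternatives. Promoter sequences are RefSeq's, and exon lengths GENCODE's.

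The members, the lists and the alternatives were chosen with earlier results of these data known. All 10 members were named whatever their result, and from each pathway list the called members or else the one of lowest p. Other pathway genes are said to be chosen later. The rule did not cover cell type markers, of which a few adipocyte genes were named after their values were seen. Agpat9, Agpat6 and Epb4.2 stood for Gpat3, Gpat4 and Epb42, 1 erythroid marker was not matched, and Mogat1 had too few counts to test. The values of 1 gene of sugar entry are not reported here. A planned comparison of protein sequences was not run.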

Additional observations from a re-analysis of the deposited data

How the results depend on the processing

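For the summed share of the 10 genes, the range over the libraries was far wider than the counting intervals. The interval of AS replicate 2 (0.593% to 0.604%) still overlapped those of AS replicate 3 (0.597% to 0.606%) and SS replicate 2 (0.587% to 0.595%). Depth was not tested gene by gene. No lipogenesis gene was called in 16 of 17 alternatives; 2 were called lower without AS replicate 1 and SS replicate 3 together, at -0.87 (Srebf1) and -1.98 (Thrsp). That setting, which called 2.49% of all genes lower and 2.72% higher, also called genes in 5 of the 6 lists, all lower. They were 2 of 11 in precursor supply, 3 of 7 in sugar entry, 2 of 16 regulators, 1 of 11 elongases and desaturases and 1 of 11 in glycerolipid assembly. Among them were Acss2, Mdh1, Slc2a2, Pklr, Insig1, Mid1ip1, Fads2 and Dgat2. In insulin and AMPK signalling it called 0 of 14. Srebf1, Mlxipl, Acly, Me1, Fasn and Thrsp kept a lower value in all 17. With 1 library left out, Mlxipl ran from -0.82 to -0.06, Acly from -0.75 to -0.12, Thrsp from -1.63 to -0.69, Me1 from -0.68 to -0.38, Fasn from -0.72 to -0.09 and Scd1 from 0.21 to 0.85. Signs turned for genes near 0. Acaca was -0.11 without AS replicate 1, -0.017 without SS replicate 3 and -0.22 without both, within a range of -0.11 to 0.30 when each library was left out. Acacb was -0.028 with median-ratio factors, -0.0094 with no filter, -0.029 by DESeq2, -0.36 without AS replicate 1, -0.0047 without SS replicate 2, -0.18 without SS replicate 3 and -0.53 without AS replicate 1 and SS replicate 3, and up to 0.23 with 1 library left out. Elovl6 was 0.19 with library totals alone, -0.27 to 0.11 with 1 library left out, 0.079 without SS replicate 3 and 0.034 with AS replicates 2 and 3 summed. Scd1 was -0.0053 without AS replicate 1 and SS replicate 3.

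Over all genes, 122 were called (115 higher, 7 lower). The number was 217 with no filter (188 and 29), 453 by DESeq2 (360 and 93), 31 by limma-voom (30 and 1), 31 with AS replicates 2 and 3 summed (31 and 0) and 662 without AS replicate 1 and SS replicate 3 (346 and 316). With each library left out in turn it ran from 22 (without AS replicate 1) to 99 (without SS replicate 3), with 22 to 85 higher and 0 to 15 lower; it was 26 without AS replicate 2 or SS replicate 2 and 38 without AS replicate 3. Genes called lower were 4 with upper-quartile factors and 1 with library totals alone. A replicate block, whose numbers the labels do not tie to animals or days, gave 460 calls (367 higher, 93 lower) and none among the lipogenesis genes. Deviations from the group means of same-numbered libraries correlated at 0.050, -0.12 and 0.19, and AS replicate 1 correlated best with SS replicate 2 (0.24), so the numbers were not taken as pairs. The causes of these shifts were not tested.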

Other observations

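SS replicate 3 held high levels of several genes of insulin signalling and glycerolipid assembly, picked here after their values were seen. This library lay at an end of the first principal component, and the share of all genes that were highest in it was not counted. Lpin1, a phosphatidate phosphatase, was at 628 CPM in that library against 67.5 to 199.7 CPM in the other 5. Gpam, the mitochondrial glycerol-phosphate acyltransferase, was at 103 CPM against 6.79 to 27.1 CPM. Pik3r1, a regulatory subunit of PI3 kinase, was at 144 CPM against 27.9 to 47.8 CPM. AS replicate 1 had the lowest values of Lpin1 and Gpam. None of these genes was called between genotypes by edgeR (adjusted p = 0.535 for Lpin1, 0.632 for Gpam and 0.575 for Pik3r1). Without AS replicate 1 and SS replicate 3 their log2 differences were -0.56, -1.22 and -0.50, also not called (adjusted p = 0.140, 0.0504 and 0.216 by edgeR).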
